A study of Mus musculus with 6 samples.

Results

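The MYC family and MAX network is described here through 9 genes, taken by symbol from the deposited count tables, which list 24984 gene symbols: Myc, Mycn, Mycl, Max, Mga, Mnt, Mxd1, Mxd3 and Mxd4. All 9 passed the filter on low counts. RNA was measured in E14TG2a, a mouse embryonic stem cell line, cultured in the serum-free N2B27 medium. There were 3 groups of 2 libraries: unmodified cells (WT), a line in which CRISPR/Cas9 had disrupted METTL3 (KO), and a line in which CRISPR/Cas9 had placed the D395A substitution in METTL3 (D395A). All groups share the parental line and the medium, and no age or added agent is labelled. The enzyme METTL3 deposits m6A (N6-methyladenosine), a common mark of mRNA, and the series was built to study this mark and circular RNA. No separate clones of a genotype are named, so genotype and the history of a line cannot be told apart. A p-value here reflects no more than how far libraries of the same group lay apart. That spread was pooled over the 3 groups and drawn toward the spread of other genes.

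MYC, MYCN and MYCL are basic helix-loop-helix leucine zipper proteins that bind E-box DNA as dimers with MAX and raise transcription of genes for growth, ribosome production and metabolism. The MXD proteins and MNT compete for MAX and bring the SIN3 corepressor to the same DNA, and MGA carries MAX into a variant Polycomb complex, PRC1.6, that silences germline genes. In mouse embryonic stem cells MYC activity supports rapid growth and self-renewal, with Myc and Mycn able to stand in for each other, and MYC transcripts are among the mRNAs known to carry m6A in several cell types.

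RefSeq promoter entries (GRCm38.p6, 250 bases before to 50 after the start) existed for 8 of the 9 genes. They were searched on both strands for the E-box CACGTG and for 3 forms of the site of E2F factors, which drive cell cycle genes (TTTGGCGC, TTTCGCGC and TTTCCCGC). The E-box was found in Max, Mnt and Mxd4, and in 7.15% of all 32851 promoter entries. E2F forms were found in Mycn alone of these 8 genes, and each form occurs in 0.514%, 0.323% and 1.07% of all entries in the order given. The windows below carry these letters in capitals, and the first stretch of capitals in Mycn holds TTTGGCGC overlapping a reverse-strand TTTCGCGC. A match is only a description of the letters.

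Mycn, chr12:12941985-12942031, minus strand: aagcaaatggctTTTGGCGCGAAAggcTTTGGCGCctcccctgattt
Max, chr12:76962246-76962263, minus strand: ggtgagcccggtCACGTG
Mnt, chr11:74830789-74830818, plus strand: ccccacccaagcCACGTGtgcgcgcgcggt
Mxd4, chr5:34187912-34187941, minus strand: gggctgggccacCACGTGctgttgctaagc

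The E-box of Max starts 3 bases before its transcription start, that of Mnt 123 bases and that of Mxd4 219 bases before. These 3 genes did not share a pattern: in KO Max and Mxd4 rose while Mnt fell, and in D395A Max did not pass the test.

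Gene counts per library ranged from 22859491 in D395A replicate 1 to 40476809 in WT replicate 1. Reads outside genes were 22.3% of all reads in KO replicate 2 and between 30.2% and 37.3% in the other libraries. Libraries of a group differed by more than sampling noise (chi-square per degree of freedom of 3.19 to 11.1). Mettl3 itself stood at 28.5 and 31.6 CPM (WT), 7.82 and 6.17 CPM (KO) and 21.1 and 23.4 CPM (D395A). CPM are counts relative to library size, scaled between libraries by trimmed means. Exons of Tox4 on the opposite strand cover 18.4% of the exon bases of Mettl3. No strand setting is given, so these Mettl3 levels are uncertain. Markers of pluripotent cells (Pou5f1, Sox2, Nanog, Esrrb, Klf4, Zfp42, Tdgf1 and Dppa5a) summed to 4082 and 4151 CPM (WT), 4793 and 4771 CPM (KO) and 2017 and 2070 CPM (D395A). These markers did not all move alike. Nanog had 931 and 910 CPM in WT against 1545 and 1609 CPM in KO. Tdgf1 (761 and 788 against 512 and 486 CPM) and Zfp42 (446 and 453 against 373 and 349 CPM) were lower in KO. Sox2 in D395A (311 and 286 CPM) overlapped WT (280 and 302 CPM). The 8 neuroectoderm markers summed to 87.8 to 92.4 CPM (WT), 58.1 to 59.1 CPM (KO) and 63.6 to 63.9 CPM (D395A), and the 8 mesoderm markers to at most 23.9 CPM. Extraembryonic endoderm markers summed to 69.4 to 221 CPM, led by Lama1, trophoblast markers to 59.1 to 91.1 CPM, mostly Tfap2c, and fibroblast markers to at most 148 CPM, mostly Vim. Among defining markers, Lum had 0 counts in all but D395A replicate 2, Col3a1 had 0 counts in WT and KO, and Elf5 had at most 0.0983 CPM. Other lineage markers differed from WT in both directions in each mutant line. Foxa2 had 0.0738 and 0.138 CPM in WT against 20.2 and 22.5 CPM in D395A. Pax6 had 1.18 and 1.41 against 10.6 and 11.3 CPM, and Cdx2 0.123 and 0.0551 against 3.11 and 2.72 CPM. Lower in D395A were Lama1 (205 and 210 CPM in WT against 28.7 and 33.4 CPM) and Tubb3 (45.8 and 42.8 against 17.3 and 17.6 CPM). Eomes was lower too (14.1 and 13.3 against 1.75 and 1.64 CPM). The KO libraries also lay below WT for Tubb3 (11.5 and 11.6 CPM) and Lama1 (132 and 125 CPM). Vim stood at 141 and 142 CPM (WT) against 42.6 and 46.8 CPM (KO), and T at 4.89 and 3.36 against 0.227 and 0.0864 CPM. Dab2 was higher in both lines, with 2.90 and 3.11 CPM (WT), 20.8 and 25.4 CPM (KO) and 16.5 and 18.4 CPM (D395A). The part of these marker levels in the results below was not tested, and in bulk RNA fewer cells of a type and less RNA per cell cannot be told apart.

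**Figure D1:**
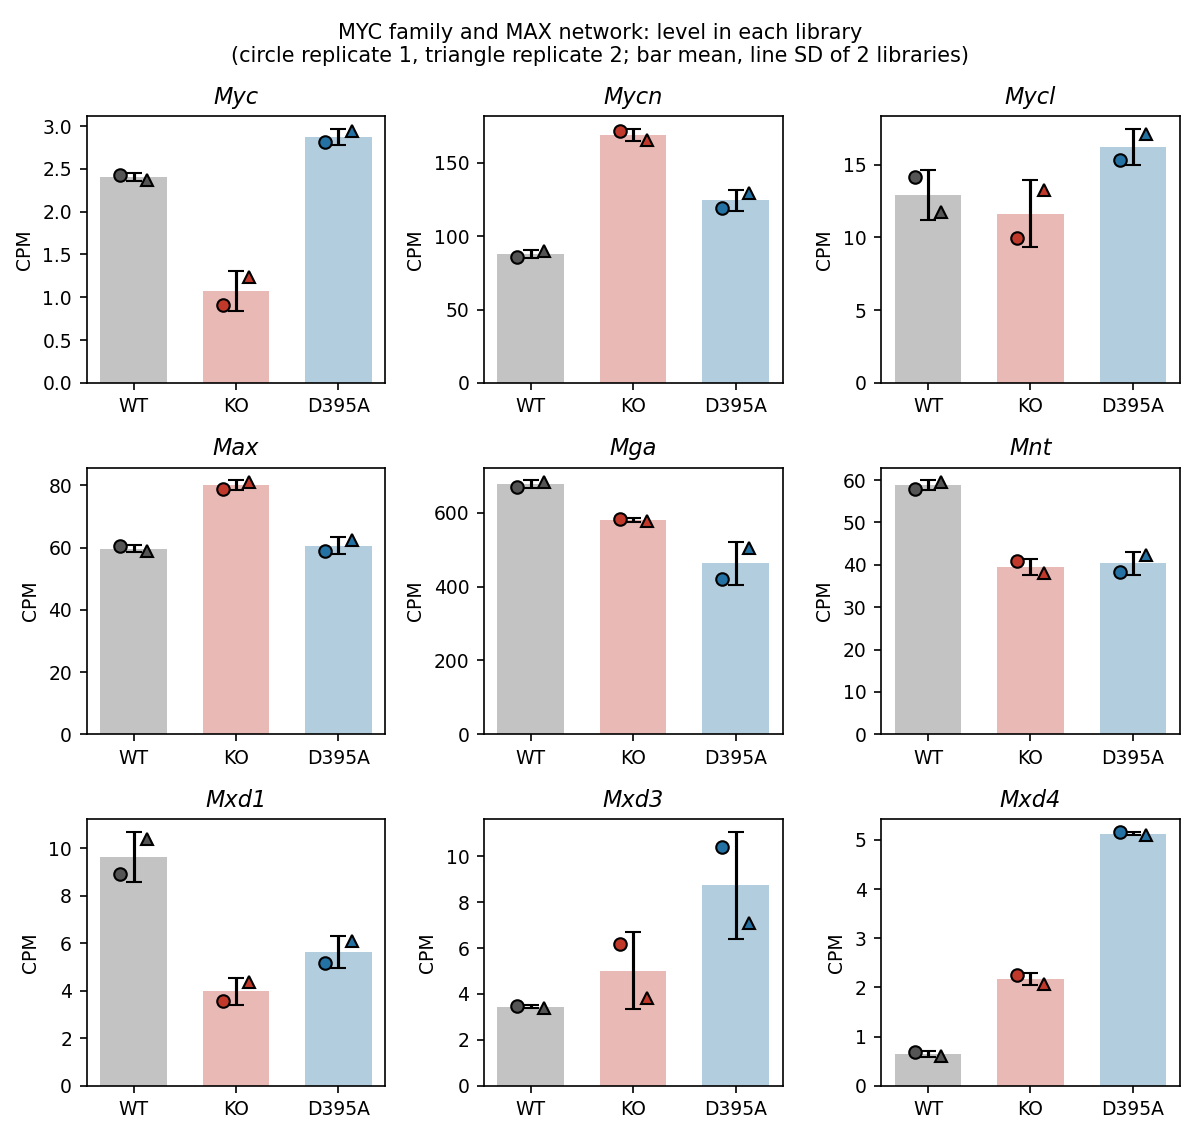
Level of each of the 9 genes in CPM (vertical axis, from 0 and different in each panel) in WT, KO and D395A. Circles are replicate 1 and triangles replicate 2, bars the mean and lines the SD of 2 libraries; Mycn was highest in KO, Mxd4 highest in D395A and Mxd1 highest in WT.

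Compared per length, Mycn was the leading MYC paralog in every library, and its lead was widest in KO. Levels per kb of exon (CPM divided by the total length of a gene's exons, mean ± SD, n = 2) were 26.7 ± 0.866 for Mycn, 3.20 ± 0.424 for Mycl and 0.884 ± 0.0166 for Myc in WT. In KO they were 51.2 ± 1.28, 2.88 ± 0.573 and 0.395 ± 0.0856, and in D395A 37.7 ± 2.09, 4.01 ± 0.306 and 1.06 ± 0.0333. Mycn thus made up 85.6% and 87.9% (WT), 94.9% and 93.1% (KO) and 88.2% and 88.1% (D395A) of the 3 paralogs. With coding length in place of exon length these shares were 80.9% and 84.0%, 92.7% and 90.3%, and 84.4% and 84.1%. The share of KO lay above both other groups on either scale. The summed level of the 3 paralogs per kb of exon was 30.5 and 31.1 (WT), 55.0 and 54.1 (KO) and 41.1 and 44.5 (D395A), so the groups did not overlap.

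Among all 9 genes, the order by level per kb of exon in WT ran from Mga (44.1) through Mycn (26.7), Max (16.6), Mnt (12.7) and Mycl (3.20) to Mxd3 (1.45), Mxd1 (1.36), Myc (0.884) and Mxd4 (0.0763). In KO and D395A Mycn (51.2 and 37.7) stood above Mga (37.8 and 30.2), whereas in WT Mga stood above Mycn. The ranges of Mxd3 and Mxd1 overlapped in WT, and those of Mycl and Mxd3 in KO and in D395A, so these neighbours could not be ordered. By coding length Max came first in all groups (121, 162 and 123 CPM per coding kb in WT, KO and D395A), so the order across genes depends on which length is used, while differences of a gene between groups do not.

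**Figure D2:**
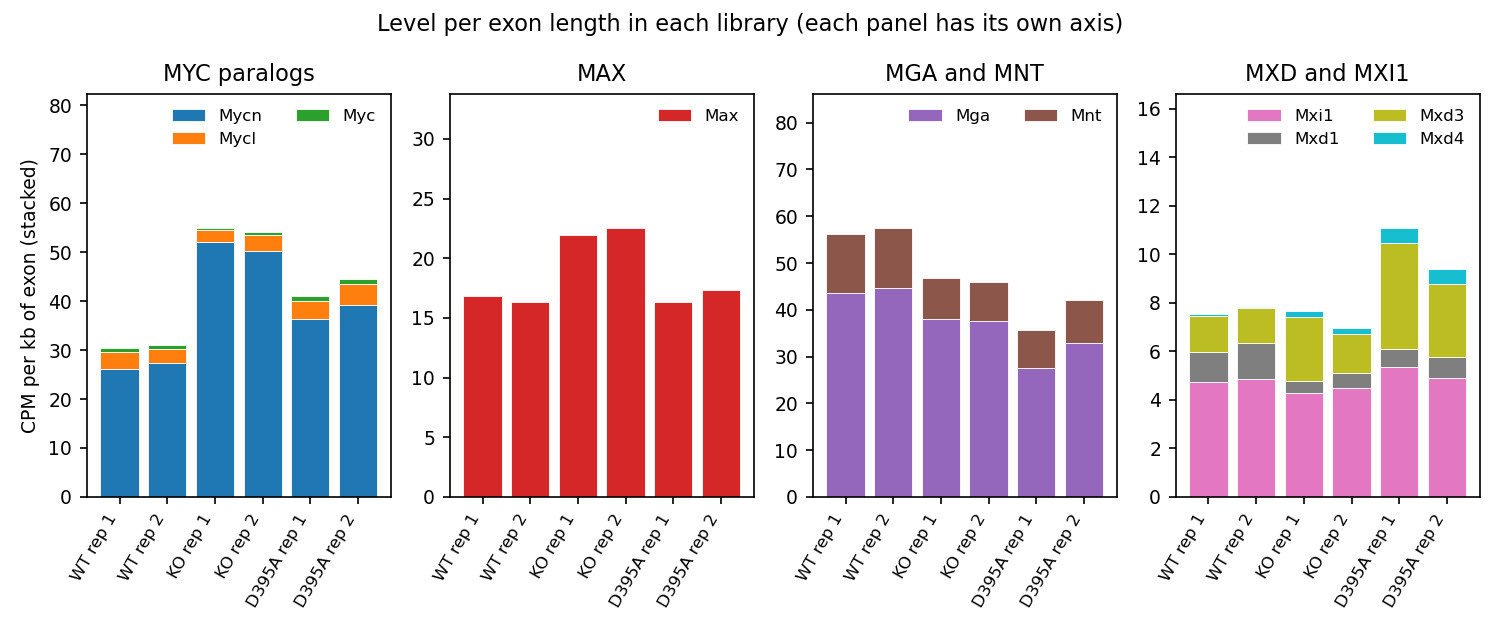
Stacked levels per kb of exon (vertical axes from 0, different in each panel) in each of the 6 libraries for the MYC paralogs, Max, the pair Mga and Mnt, and the MXD genes with Mxi1. The MYC stack is tallest in KO (55.0 and 54.1), and the Mxd3 and Mxd4 layers are thickest in D395A.

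In KO against WT, 3 of the 9 genes rose (Mycn, Max and Mxd4) and 4 fell (Myc, Mga, Mnt and Mxd1), at an adjusted p under 0.05 in edgeR's quasi-likelihood test. Of all 15663 genes tested, 33.6% were called higher and 32.6% lower, so the count of members called lies near the background. In D395A against WT, 4 rose (Mycn, Mycl, Mxd3 and Mxd4) and 3 fell (Mga, Mnt and Mxd1), against 36.3% and 34.0% of all genes. In D395A against KO, 5 were higher (Myc, Mycl, Mxd1, Mxd3 and Mxd4) and 3 lower (Mycn, Max and Mga), against 26.5% and 23.8% of all genes. The median log2 fold changes of the 9 genes were -0.16, 0.26 and 0.49 in these comparisons, beside 0.01, 0.02 and 0.04 over all genes. The comparisons with WT use the same WT libraries, so they are not independent of each other.

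Mycn, the paralog that dominates in these cells, rose in both lines and more in KO. It stood at 85.9 and 89.9 CPM (WT), 172 and 166 CPM (KO) and 119 and 129 CPM (D395A). No group overlapped another, and D395A lay between the others. The log2 fold change was 0.94 ± 0.06 in KO (1.92-fold, adjusted p = 5.9e-08) and 0.50 ± 0.07 in D395A (1.42-fold, adjusted p = 1.8e-05), and D395A was below KO by a log2 value of -0.44 ± 0.06 (adjusted p = 1e-04). The gene lies on the minus strand of chromosome 12 (12936093 to 12941914, GRCm38), and no GENCODE exon on the other strand overlaps its exons.

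Myc, the founding member of the family, moved the other way in KO. Its levels were 2.43 and 2.37 CPM (WT), 0.910 and 1.24 CPM (KO) and 2.81 and 2.94 CPM (D395A). The KO libraries were lowest and those of D395A highest, with 32 to 106 counts per library. Myc fell by 1.16 ± 0.29 on the log2 scale in KO (adjusted p = 0.0037), stood at 0.26 ± 0.28 in D395A (adjusted p = 0.42), and was higher in D395A than in KO by 1.42 ± 0.29 (2.67-fold, adjusted p = 0.0015). The same calls held under all 17 alternative settings, with -1.40 to -0.95 for KO against WT. Myc lies on the plus strand of chromosome 15 (61985391 to 61990374).

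Mycl, the third paralog, did not pass in KO and rose slightly in D395A. It had 14.1 and 11.7 CPM (WT), 9.98 and 13.3 CPM (KO) and 15.3 and 17.1 CPM (D395A). WT and KO overlapped, with a log2 difference of -0.16 ± 0.14 (adjusted p = 0.33, but -0.37 and 0.026 without KO replicate 2), and both D395A libraries lay above the rest. Mycl rose by 0.33 ± 0.14 in D395A (adjusted p = 0.045) and was higher there than in KO by 0.49 ± 0.14 (adjusted p = 0.011). The first call ended without WT replicate 2 (0.20, adjusted p = 0.32), without D395A replicate 2 (0.24, adjusted p = 0.25), in DESeq2 (adjusted p = 0.15) and under 3 other scalings (0.054, 0.054 and 0.10), with adjusted p of 0.0083 to 0.32 over all alternatives. The second ended without KO replicate 1 (0.29, adjusted p = 0.090) or D395A replicate 2 (0.40, adjusted p = 0.097), the range being 0.00016 to 0.097.

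Max, which codes for the partner shared by the MYC, MXD and MNT proteins, rose in KO. Its levels were 60.5 and 58.8 CPM (WT), 78.9 and 81.1 CPM (KO) and 58.8 and 62.5 CPM (D395A). KO stood above both other groups, which overlapped. The log2 fold change was 0.42 ± 0.06 in KO (1.34-fold, adjusted p = 5.2e-05) and 0.03 ± 0.06 in D395A (adjusted p = 0.73), and D395A was below KO by -0.40 ± 0.06 (adjusted p = 0.00018). Max shares chromosome 12 with Mycn, whose genes had a median log2 fold change of -0.10 in KO.

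**Figure D3:**
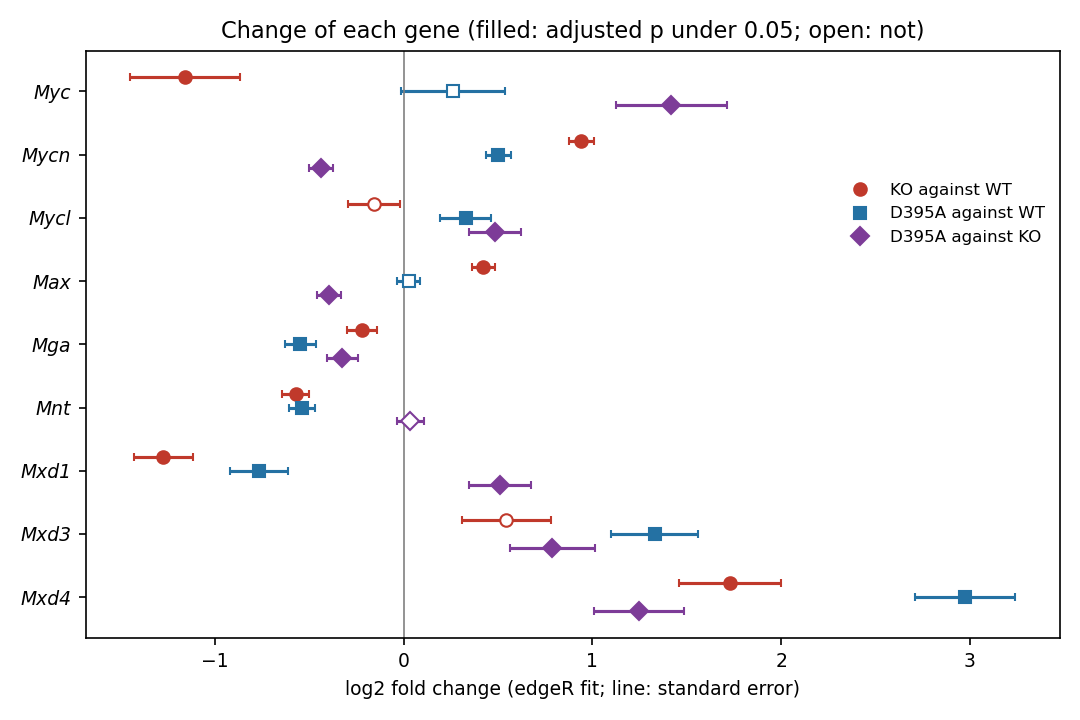
Log2 fold changes (horizontal axis) with standard errors from the edgeR fit for the 9 genes in 3 comparisons; filled symbols passed an adjusted p of 0.05 and open ones did not. The largest changes against WT are those of Mxd4, at 1.73 in KO and 2.98 in D395A, and Myc is on opposite sides of 0 in KO and D395A, the latter open.

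Mxd4, a MAX partner that opposes MYC and is linked to differentiation, had the largest change of the 9 genes in both lines. It had 0.688 and 0.606 CPM in WT (28 and 22 counts), 2.25 and 2.07 CPM in the KO libraries, and 5.15 and 5.10 CPM in D395A (121 and 184 counts). The 3 groups did not overlap and the replicates lay close together. Mxd4 rose by 1.73 ± 0.27 in KO (3.32-fold, adjusted p = 1e-04) and by 2.98 ± 0.27 in D395A (7.87-fold, adjusted p = 5.9e-07), and D395A exceeded KO by 1.25 ± 0.24 (adjusted p = 0.00083). Of all genes tested, 91.8% changed less in D395A. It is on the minus strand of chromosome 5 (34173883 to 34187720), and 6.06% of its exon bases overlap the antisense gene Gm42846, which was not analysed here.

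Mxd3, the MXD gene known for expression in proliferating cells, was uneven between replicates. It had 3.49 and 3.39 CPM (WT), 6.20 and 3.83 CPM (KO) and 10.4 and 7.10 CPM (D395A). In both mutant lines replicate 1 was the higher, and these libraries also had the larger share of reads outside genes (31.1% against 22.3% in KO, 37.3% against 33.8% in D395A); the part of that share in the result was not tested. Mxd3 rose in D395A by 1.33 ± 0.23 (2.51-fold, adjusted p = 0.00021), a call that held under all 17 alternatives. In KO it stood at 0.54 ± 0.24 (adjusted p = 0.058), with 0.16 without KO replicate 1 (adjusted p = 0.57) and 0.85 without KO replicate 2 (adjusted p = 0.0012). It passed there under 6 alternatives, the replicate block among them (adjusted p = 0.023). D395A exceeded KO by 0.79 ± 0.22 (adjusted p = 0.011), or by 0.47 without KO replicate 2 (adjusted p = 0.061) and 0.50 without D395A replicate 1 (adjusted p = 0.14, from a range of 2e-05 to 0.14). Exons of Prelid1 on the opposite strand cover 4.43% of its exon bases. Prelid1 itself was lower in the mutant lines (KO 153 to 155 CPM, D395A 195 to 206 CPM) than in WT (233 to 235 CPM).

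Mxd1, the first MAD gene described and a marker of cell cycle exit in many lineages, fell in both lines. Its levels were 8.90 and 10.4 CPM (WT), 3.58 and 4.38 CPM (KO) and 5.15 and 6.10 CPM (D395A). WT was highest and KO lowest without overlap. The log2 fold change was -1.27 ± 0.16 in KO (adjusted p = 1.1e-05) and -0.77 ± 0.15 in D395A (adjusted p = 0.00063). D395A exceeded KO by 0.51 ± 0.16 (adjusted p = 0.021), a call that ended in DESeq2 (0.092), in a fit of these 4 libraries alone (0.065), and without KO replicate 1 (0.12) or D395A replicate 2 (0.17), where adjusted p ranged from 0.0084 to 0.17. Mxd1 and Mxd4, which code for related repressors, therefore moved in opposite directions in each line.

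Mnt, the most widely expressed MAX-binding repressor, fell to about the same level in both lines. It had 57.9 and 59.6 CPM (WT), 40.9 and 38.1 CPM (KO) and 38.4 and 42.2 CPM (D395A). KO and D395A overlapped below WT, with log2 fold changes of -0.57 ± 0.07 (adjusted p = 1.1e-05) and -0.54 ± 0.07 (adjusted p = 1.9e-05) and a difference between the lines of 0.03 ± 0.07 (adjusted p = 0.71). Mnt is on chromosome 11 (74830920 to 74845725, plus strand), where the median of 1300 genes was itself -0.41 in KO and -0.49 in D395A. Relative to that median Mnt stood at -0.16 and -0.05, so most of its change matched that median. The other 8 genes lie on chromosomes whose medians were between -0.10 and 0.16 in the comparisons with WT.

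Mga, which codes for the scaffold of PRC1.6 and is the longest of these genes, was lower in both lines. It had 670 and 684 CPM (WT), 583 and 577 CPM (KO) and 421 and 504 CPM (D395A), with no overlap between groups. It fell by 0.55 ± 0.08 on the log2 scale in D395A (adjusted p = 5.7e-05). The change in KO was small, -0.22 ± 0.08 (adjusted p = 0.028), and that call ended without WT replicate 1 (0.12), WT replicate 2 (0.17), KO replicate 1 (0.070) or KO replicate 2 (0.083), where adjusted p over the alternatives was 0.00014 to 0.17. D395A was below KO by -0.33 ± 0.08 (adjusted p = 0.0051), or -0.20 without D395A replicate 1 (adjusted p = 0.0041).

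None of the 4 remaining MAX and MLX genes rose against WT, and 2 fell in each line. Of all genes, 33.6% were called higher and 32.6% lower in KO, and 36.3% and 34.0% in D395A. With 4 genes, the counts cannot be told apart from these shares. Mxi1, the fourth MXD gene, had 32.2 and 33.2 CPM (WT), 29.2 and 30.5 CPM (KO) and 36.6 and 33.5 CPM (D395A), which did not pass against WT (-0.13 ± 0.07, adjusted p = 0.12, and 0.10 ± 0.07, adjusted p = 0.25). Mlxipl, the glucose-responsive partner of MLX, had 22.9 and 24.3 CPM in WT and fell to 13.2 and 14.5 CPM in KO (-0.77 ± 0.09) and to 16.2 and 18.1 CPM in D395A (-0.45 ± 0.09). Mlx, a MAX-like dimer partner on chromosome 11, fell from 44.2 and 36.8 CPM to 27.3 and 28.9 CPM and to 29.7 and 28.4 CPM (-0.53 ± 0.09 and -0.48 ± 0.09), beside chromosome medians of -0.41 and -0.49, and 19.3% of its exon bases overlap Psmc3ip on the other strand. Mlxip, a paralog of Mlxipl, did not pass in either line (0.01 ± 0.08 and 0.11 ± 0.09, adjusted p = 0.91 and 0.27). Summed per kb of exon, Mxd1, Mxd3, Mxd4 and Mxi1 reached 7.53 and 7.84 (WT), 7.67 and 6.95 (KO) and 11.1 and 9.38 (D395A), so WT and KO overlapped and D395A lay above them. With coding length the sums were 50.4 and 53.2 (WT), 47.4 and 45.6 (KO) and 68.2 and 61.0 (D395A). On that scale KO lay below WT, so the overlap of WT and KO depends on the length used.

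Genes known as MYC targets fell more often than they rose in both lines. Of 66 tested, 17 rose and 37 fell in KO (median -0.25) and 14 rose and 40 fell in D395A (median -0.31). Over all genes the medians were 0.01 and 0.02, with 33.6% called higher and 32.6% lower in KO and 36.3% and 34.0% in D395A. Without the 9 targets on chromosomes 8 and 11 the medians were -0.22 and -0.25. Ldha, lactate dehydrogenase, fell from 503 and 528 CPM to 215 and 218 CPM (KO) and 178 and 183 CPM (D395A; -1.25 ± 0.06 and -1.51 ± 0.06). The serine enzyme Shmt2 (-1.57 ± 0.07 in KO and -0.81 ± 0.07 in D395A) and hexokinase Hk2 (-1.33 ± 0.08 and -0.70 ± 0.08) also fell in both lines. So did the folate enzyme Shmt1 (-0.52 ± 0.07 and -1.26 ± 0.07) and the ribosome factor Pes1 (-0.97 ± 0.06 and -1.06 ± 0.07), both on chromosome 11. Ccnd2, which codes for a G1 cyclin, rose from 1.40 and 1.57 CPM to 5.89 and 6.54 CPM in KO (2.06 ± 0.21) and to 68.2 and 90.3 CPM in D395A (5.74 ± 0.16). Polr1b, a subunit of RNA polymerase I, rose in both lines (1.89 ± 0.08 and 0.97 ± 0.08), while Tert, the telomerase subunit, rose in KO (1.39 ± 0.09) and did not pass in D395A (-0.19 ± 0.09). Ndufaf4 (1.00 ± 0.08 and 1.30 ± 0.08) and Apex1 (1.35 ± 0.06 and 1.77 ± 0.06) rose in both lines, though exons on the other strand cover 61.7% of the exon bases of Apex1.

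Of 13 genes that MYC is known to repress, 5 rose and 5 fell in KO (median 0.43), and 8 rose and 4 fell in D395A (median 0.63), beside 33.6% higher and 32.6% lower of all genes in KO and 36.3% and 34.0% in D395A. The KO counts lie near that background. Cdkn1c, a cell cycle inhibitor from an imprinted locus with exons of the other strand over 30.7% of its exon bases, rose by 2.94 ± 0.21 in KO and 1.98 ± 0.22 in D395A. The inhibitor Cdkn2b and the stress gene Gadd45g rose in KO (1.25 ± 0.31 and 1.69 ± 0.33) and in D395A (1.11 ± 0.31 and 1.11 ± 0.34). The D395A calls ended without WT replicate 2 for Cdkn2b (0.79, adjusted p = 0.0715) and without WT replicate 1 for Gadd45g (adjusted p = 0.066). The matrix gene Thbs1 and the differentiation factor Cebpa rose in D395A (3.97 ± 0.52 and 1.75 ± 0.38) and did not pass in KO (1.31 ± 0.55 and 0.89 ± 0.38, adjusted p = 0.0529 and 0.0535). The rises named here started from low WT levels. These were 0.197 and 0.193 CPM for Thbs1, 0.713 and 0.799 CPM for Gadd45g, and 1.43 and 0.854 CPM for Cdkn2b. Cdkn1c had 1.11 and 0.854 CPM in WT, and Cebpa 0.959 and 1.07 CPM. In D395A Cebpa was uneven (4.56 and 2.38 CPM). Ndrg1, which also answers to low oxygen, fell in both lines (-2.61 ± 0.11 and -2.91 ± 0.11), as did Ndrg2 (-1.98 ± 0.11 and -2.87 ± 0.12) and Pdgfrb (-0.57 ± 0.08 and -1.43 ± 0.09). Gadd45a fell in KO (-2.09 ± 0.14) and did not pass in D395A (-0.09 ± 0.12). The members of this list thus moved both ways.

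**Figure D4:**
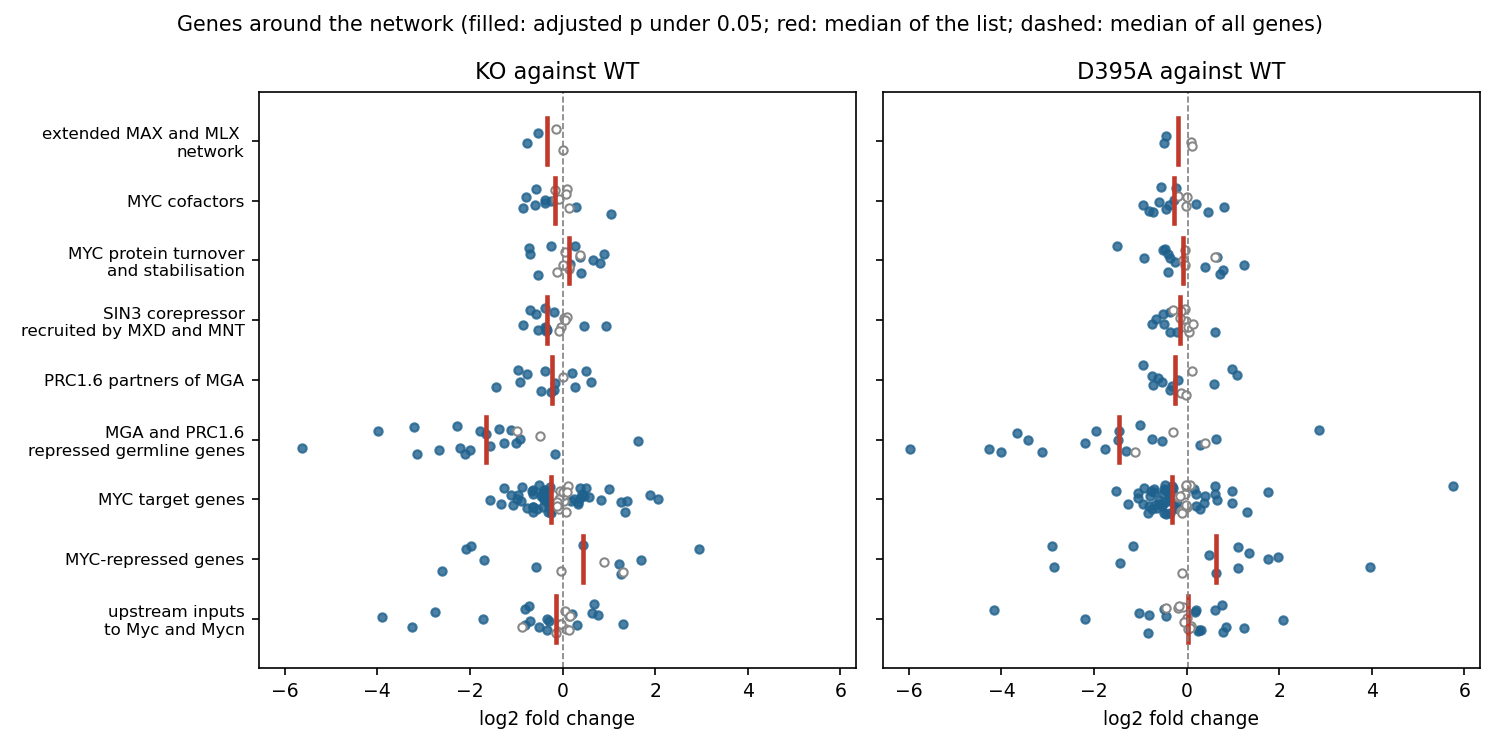
Log2 fold changes (horizontal axis) in KO and D395A against WT for genes of 9 lists around the network, 1 point per gene; filled points passed an adjusted p of 0.05, red lines are list medians and the dashed line is the median of all genes. The germline genes lie farthest to the left, with medians of -1.66 and -1.46.

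Among 15 cofactors of MYC, 2 rose and 7 fell in KO (median -0.17) and 3 rose and 9 fell in D395A (median -0.26). Over all genes 33.6% were called higher and 32.6% lower in KO, and 36.3% and 34.0% in D395A. Cdk9, the kinase that releases paused RNA polymerase, rose from 57.8 and 62.0 CPM to 121 and 125 CPM in KO (1.04 ± 0.06) and to 103 and 107 CPM in D395A (0.81 ± 0.06), and Paf1 rose by 0.29 ± 0.07 and 0.47 ± 0.07. Actl6a (-0.80 ± 0.07 and -0.82 ± 0.07) and Supt5 (-0.60 ± 0.06 and -0.72 ± 0.06) fell in both lines, as did Ruvbl1 (-0.85 ± 0.06 in KO and -0.54 ± 0.06 in D395A) and Wdr5, which helps MYC onto chromatin (-0.25 ± 0.06 and -0.94 ± 0.07). The KO call of Wdr5 ended without WT replicate 1 (adjusted p = 0.082) or KO replicate 1 (adjusted p = 0.052). Kat5, an acetyltransferase, was called in D395A (0.21 ± 0.08, adjusted p = 0.043), but not under 8 of the 17 alternatives. Of 17 SIN3 corepressor genes, 2 rose and 10 fell in KO (median -0.34) and 1 rose and 7 fell in D395A (median -0.15). Without the 5 genes on chromosomes 8 and 11, 6 fell in KO (median -0.13) and 4 in D395A (median -0.03), the latter near the share of all genes. Sin3a, on chromosome 9, fell from 299 and 294 CPM to 188 and 208 CPM in KO (-0.58 ± 0.08) and to 194 and 223 CPM in D395A (-0.51 ± 0.08). Suds3 rose by 0.94 ± 0.07 and 0.62 ± 0.07, while Sap30 and Ncor1, on chromosomes 8 and 11, changed by -0.86 ± 0.07 and -0.70 ± 0.07 in KO and -0.75 ± 0.07 and -0.65 ± 0.07 in D395A.

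Genes that act on MYC protein stability moved both ways, with 7 of 17 higher and 4 lower in KO (median 0.13) and 5 higher and 8 lower in D395A (median -0.08). In KO the number called lies near the 33.6% and 32.6% of all genes. For D395A 36.3% of all genes were called higher and 34.0% lower. Fbxw7, the ubiquitin ligase subunit that marks MYC and MYCN for decay, rose from 35.2 and 34.0 CPM to 66.9 and 61.4 CPM in KO (0.89 ± 0.07) and to 56.0 and 58.7 CPM in D395A (0.73 ± 0.07). The kinase gene Pim1, a STAT3 target, fell from 190 CPM in both WT libraries to 117 and 115 CPM in KO and to 65.8 and 68.6 CPM in D395A (-0.71 ± 0.06 and -1.50 ± 0.06). Fbxo28 (0.81 ± 0.07 in KO and 0.65 ± 0.07 in D395A) and Trim32 (0.65 ± 0.08 and 1.24 ± 0.08) rose in both lines, and the deubiquitinases Usp28 (-0.53 ± 0.06 and -0.46 ± 0.06) and Usp36, on chromosome 11 (-0.71 ± 0.06 and -0.40 ± 0.06), fell in both. Pim2 rose in D395A (0.79 ± 0.10) and did not pass in KO (0.02 ± 0.10). Aurka, the kinase that shields MYCN from decay, fell in D395A (-0.51 ± 0.07) and did not pass in KO (0.13 ± 0.06, adjusted p = 0.080). Pim3 rose in KO (0.39 ± 0.06) and fell in D395A (-0.92 ± 0.07).

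Among the PRC1.6 partners of MGA, 4 of 14 rose and 9 fell in KO (median -0.22), and 3 rose and 8 fell in D395A (median -0.26). Of all genes, 33.6% were called higher and 32.6% lower in KO, and 36.3% and 34.0% in D395A. The counts of rises thus did not exceed the share of all genes. Without WT replicate 1 the number called in KO was 8 in place of 13. Pcgf6, the subunit that defines PRC1.6, had 86.1 and 85.1 CPM (WT), 52.3 and 48.1 CPM (KO) and 52.2 and 51.8 CPM (D395A), a fall in both lines (-0.77 ± 0.06 and -0.72 ± 0.06). L3mbtl2, a methyl-lysine reader of the complex, also fell in both (-0.47 ± 0.07 and -0.74 ± 0.07), as did Cbx1 (-0.96 ± 0.06 and -0.62 ± 0.06) and Tfdp1 (-0.91 ± 0.06 and -0.54 ± 0.06), on chromosomes 11 and 8. Cbx3 fell in KO (-1.44 ± 0.06) and did not pass in D395A (-0.11 ± 0.06, adjusted p = 0.12). E2f6, a DNA-binding subunit, rose in D395A (0.59 ± 0.07) and in KO (0.21 ± 0.07, adjusted p = 0.025), where the call ended in DESeq2 (0.099), with scaling that ignores chromosomes 8, 11, X and Y (0.10), and without WT replicate 1 (0.15), WT replicate 2 (0.057) or KO replicate 2 (0.14). Yaf2 and Ring1 rose in both lines (0.62 ± 0.10 and 0.51 ± 0.14 in KO, 0.98 ± 0.10 and 1.09 ± 0.14 in D395A). The KO call of Ring1 ended without WT replicate 1 (adjusted p = 0.057). Rybp rose in KO (0.28 ± 0.07) and did not pass in D395A (0.12 ± 0.07, adjusted p = 0.11).

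Germline genes, many of them known targets of silencing by MGA and PRC1.6, were mostly lower in both lines. Of 21 tested, 18 fell and 1 rose in KO (median -1.66), and 15 fell and 3 rose in D395A (median -1.46). Over all genes 33.6% were called higher and 32.6% lower in KO, and 36.3% and 34.0% in D395A, with medians of 0.01 and 0.02. Smc1b, a meiotic cohesin subunit, went from 46.0 and 53.4 CPM in WT to 1.08 and 0.922 CPM in KO and to 0.937 and 0.693 CPM in D395A (-5.63 ± 0.14 and -5.97 ± 0.15). Hormad1, a meiotic axis protein, fell in both lines (-3.98 ± 0.13 and -4.26 ± 0.13), as did Stk31 (-3.22 ± 0.12 and -1.77 ± 0.11). Tuba3a, a testis tubulin gene, fell from 165 and 161 CPM to 35.8 and 39.5 CPM in KO and to 11.3 and 9.34 CPM in D395A. Stra8, the gene of entry into meiosis, had 25.2 and 24.9 CPM in WT and 12.6 and 13.8 CPM in KO (-0.93 ± 0.11), but 199 and 162 CPM in D395A (2.85 ± 0.09). Rpl10l, a testis copy of a ribosomal protein gene, rose in KO by 1.63 ± 0.06 and in D395A by 0.29 ± 0.07, and near-identical copies make its count uncertain. Tdrkh did not pass in KO (-0.48 ± 0.20, adjusted p = 0.0502) and rose in D395A by 0.63 ± 0.19, a call that ended without WT replicate 2 (adjusted p = 0.088) or D395A replicate 1 (adjusted p = 0.10).

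Of 27 genes that act upstream of Myc and Mycn, 6 rose and 12 fell in KO (median -0.13) and 11 rose and 7 fell in D395A (median 0.03). Over all genes 33.6% were called higher and 32.6% lower in KO, and 36.3% and 34.0% in D395A. The count of rises in D395A lies near that share. Without the 7 on chromosomes 8 and 11, 5 rose and 7 fell in KO (median -0.05), and 9 rose and 4 fell in D395A (median 0.08). In D395A against KO 12 of the 27 were higher and 6 lower, against 26.5% and 23.8% of all genes. The count of lower genes lies near that share. Lin28a, an RNA-binding protein that blocks let-7 microRNA, a known brake on Mycn, had 86.1 and 75.0 CPM (WT), 7.51 and 9.42 CPM (KO; log2 -3.25 ± 0.12) and 128 and 148 CPM (D395A; log2 0.78 ± 0.09). Lef1, a transcription factor of Wnt signalling, had 4.77 and 3.91 CPM (WT), 0.597 and 0.691 CPM (KO; log2 -2.75 ± 0.20) and 17.2 and 19.4 CPM (D395A; log2 2.07 ± 0.14). Both were thus lowest in KO and highest in D395A. Spry4, a feedback inhibitor of ERK signalling, fell in KO (-3.90 ± 0.20) and D395A (-1.04 ± 0.16), as did Etv4, on chromosome 11 (-1.72 ± 0.08 and -4.17 ± 0.10). The ligand gene Fgf4 went from 227 and 225 CPM in WT to 356 and 347 CPM in KO, a rise (0.64 ± 0.07), and fell to 46.3 and 52.0 CPM in D395A. Ythdf2, the m6A reader that promotes mRNA decay, rose in both lines (1.30 ± 0.07 and 1.25 ± 0.07), as did E2f3 (0.67 ± 0.06 and 0.76 ± 0.06) and Lin28b (0.30 ± 0.09 and 0.85 ± 0.09). The KO call of Lin28b ended without WT replicate 1 (adjusted p = 0.065), WT replicate 2 (adjusted p = 0.078) or KO replicate 2 (0.17, adjusted p = 0.17). Fgfr1 rose in KO (0.77 ± 0.06) and did not pass in D395A (0.03 ± 0.06).

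The genes whose profile over the 6 libraries was most like that of Mycn were Msantd3, Lamb1 and Ncs1. Likeness was the Euclidean distance between log2 CPM profiles, each centred on its mean, among 11926 genes with at least 2 CPM on average; the points share their libraries and depth. The distances were 0.059, 0.089 and 0.094. Msantd3 had 31.4 and 32.3 CPM (WT), 59.7 and 59.2 CPM (KO) and 43.4 and 46.2 CPM (D395A), the same order of groups as Mycn. For Myc the nearest were Porcn (0.136), whose product acts in Wnt secretion, the transcription factor gene Sp4 (0.228) and the cold-inducible gene Cirbp (0.240). Porcn had 10.5 and 10.1 CPM (WT), 4.04 and 5.65 CPM (KO) and 12.8 and 11.8 CPM (D395A).

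**Figure D5:**
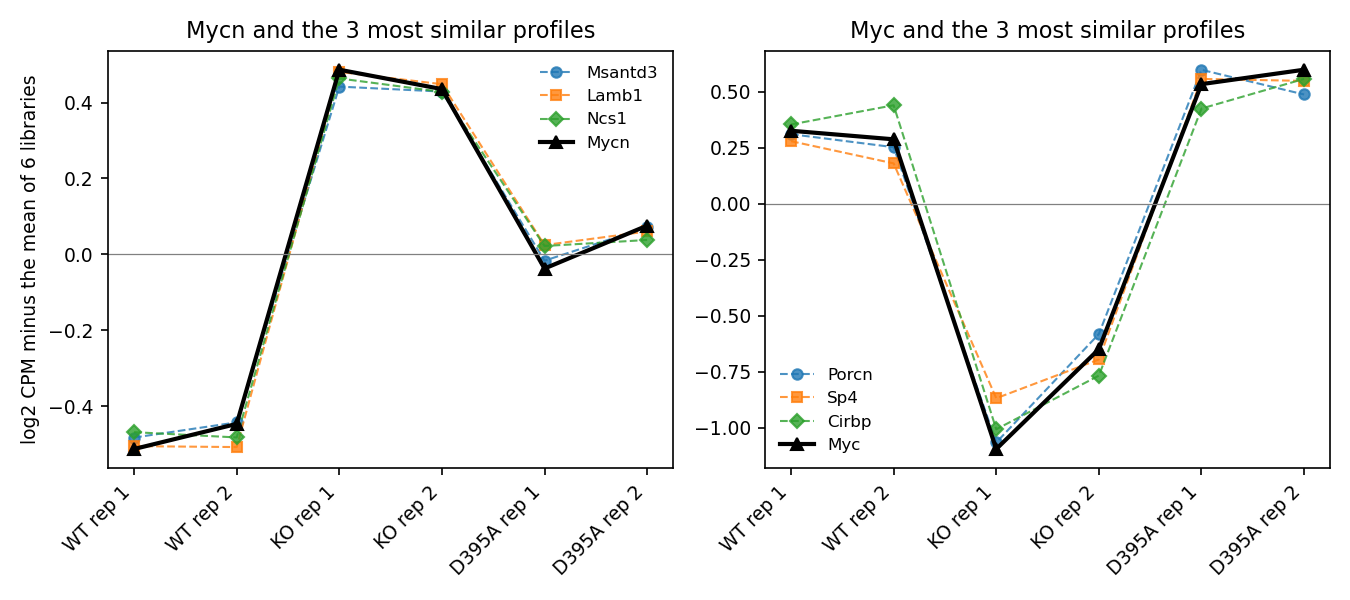
Log2 CPM minus the gene's own mean over the 6 libraries (vertical axis, different in each panel) for Mycn and for Myc, each with the 3 genes of smallest distance. Mycn and its neighbours are highest in KO, and Myc and its neighbours are lowest in KO.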

How the data were processed

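Counts per gene symbol were deposited as 1 table per library. Per the submitters' processing notes, reads were trimmed with Trimmomatic 0.36, aligned to mm10 with STAR 2.7 and counted with HTSeq 0.11.2. Per the labels' protocols, total RNA was depleted of ribosomal RNA and made into directional libraries. Neither strand setting nor annotation release is given in the sources used, and counts of genes with opposite-strand exons are uncertain; beside those given in the report, such exons cover 36.7% of Tdrkh, 19.1% of Gadd45a, 17.2% of L3mbtl2, 14.5% of Pim1, 13.7% of Lef1, 12.1% of Kat5 and 11.6% of Actl6a. The HTSeq summary lines (29.0% to 44.2% of a library) were left out.

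Counts were fitted for all genes with edgeR 4.0.16 (R 4.3.3): filterByExpr, TMM scaling, and quasi-likelihood F tests with the 6 libraries in 1 model without covariates (3 residual degrees of freedom), adjusted by Benjamini-Hochberg over the 15663 genes tested, threshold 0.05. Changes are printed as log2 fold ± SE, and 1 count equals 0.0246 to 0.0426 CPM. Positions, exon and coding lengths came from GENCODE M21 (GRCm38). The script was tested on simulated data. Members and lists were chosen with earlier results of these data known. Of each list, up to 3 largest rises and falls past the test with at least 2 CPM in the higher group are named for each line, and all of the MAX and MLX list; 1 gene so chosen is not reported here. The labels do not say that replicate numbers pair libraries. Alternatives were other scalings and filters, DESeq2 1.42.0, limma-voom (limma 3.58.1), a robust fit, a replicate block and leaving out each library.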

Additional observations from a re-analysis of the deposited data

Results flagged for a closer look

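Of the 9 genes, 8 differed between the mutant lines in the test of D395A against KO itself, as did 2 of the 4 MAX and MLX genes. Of all genes tested, 26.5% were called higher and 23.8% lower in that comparison. The log2 differences (D395A minus KO) were 1.42 for Myc, -0.44 for Mycn, 0.49 for Mycl, -0.40 for Max, -0.33 for Mga, 0.51 for Mxd1, 0.79 for Mxd3, 1.25 for Mxd4, 0.23 for Mxi1 (adjusted p = 0.020) and 0.32 for Mlxipl (adjusted p = 0.014). Neither Mxi1 nor Mlxipl was called in DESeq2 or without KO replicate 1, 1 of the MAX and MLX list was called in a fit of these 4 libraries and without D395A replicate 2, and the calls of Mycl, Mxd1 and Mxd3 ended under the alternatives given with them above. Both libraries of D395A lay on the same side of both KO libraries for each of these genes. The share of all genes that separate in this way was not computed, so this only describes the levels.

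Among the named genes of the other lists, 5 changed in opposite directions against WT in the 2 lines and also passed the direct test between them. The named genes had been picked for large changes. The share of all genes with such opposite changes was not computed, so the count describes these genes only. D395A minus KO was 4.82 ± 0.18 for Lef1, 4.03 ± 0.12 for Lin28a, 3.78 ± 0.10 for Stra8, -2.83 ± 0.07 for Fgf4 and -1.31 ± 0.07 for Pim3. Mean levels (WT, KO, D395A) were 226, 351 and 49.1 CPM for Fgf4 and 74.3, 97.5 and 39.3 CPM for Pim3.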

How the results depend on the processing

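The counts of the 9 genes called stayed within 1.5 times the reported count in each comparison under all alternatives. Of 459 alternative values for the 27 pairs of a gene and a comparison, 428 kept direction and side of the threshold, 18 lost the call, 7 gained it and 6 changed sign. Every change of sign was in a difference that had not passed the test. For Mycl in KO against WT the values ran from -0.374 to 0.0377 when single libraries were left out. Max in D395A against WT was -0.0428 with scaling that ignores chromosomes 8, 11, X and Y, and -0.0227 to 0.0687 with single libraries left out. Mnt in D395A against KO was -0.00086 in a fit of these 4 libraries and -0.0429 to 0.0976 with single libraries left out. The cause was not tested. With the replicate number as a block 8, 7 and 8 genes were called, and the block changed no call but that of Mxd3 in KO; the deviations of same-numbered libraries correlated at 0.03, 0.00446 and 0.19. Among the named list genes, 1983 of 2006 alternative values kept their call and 23 lost it, those of Kat5, Tdrkh, Ring1, E2f6, Wdr5, Lin28b, Cdkn2b and Gadd45g. Depth limits Myc and Mxd4, with 22 to 184 counts per library, and also Mxd1 and Mxd3, with counts down to 121 and 123.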
